A study of Mus musculus with 9 samples.

Results

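Chromatin accessibility was compared in brain endothelial cells (brain ECs) of young mice that lacked endothelial Klf4 (young EC-K4KO, 3 libraries) and of young mice with the same Cre transgene and intact Klf4 (young WT Cre, 2 libraries). These 5 of the 9 libraries of the series were chosen by their titles, and the other 4, from old EC-K4KO and old WT Cre mice, were used only where stated. In the EC-K4KO mice a tamoxifen-inducible Cre recombinase under the Cdh5 (VE-cadherin) promoter deleted floxed Klf4. The WT Cre mice carried the same transgene as controls and also received tamoxifen, so Cre and tamoxifen were common to both groups. The mouse line was on a C57BL/6J background. The study as a whole used both sexes, and its methods do not give the sex behind these libraries. Brain ECs were sorted by flow cytometry according to the study's methods, while the labels name endothelial nuclei as the input. Cdh5 is active in endothelium throughout the body, and the deletion was therefore not restricted to the brain. The labels give the age only as young and do not say which libraries came from which animals. The study describes its ATAC-seq replicates as biological. Since the labels do not link them to animals, the p-values are taken to measure the spread between libraries, which may be partly technical.

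KLF4 is a zinc-finger transcription factor that binds GC-rich and CACCC-type elements. In endothelium it is induced by laminar flow together with KLF2, downstream of the MEKK3-MEK5-ERK5 kinase cascade, and it is known for restraining inflammatory and procoagulant genes. In ATAC-seq the Tn5 transposase cuts and tags open DNA, so promoters and enhancers in use appear as peaks of reads. Each library had its own list of broad peaks, each with a fold enrichment over the local background and a −log10 p. A peak's rank is its place in the list of its own library by −log10 p, with rank 1 the strongest.

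The lists were compared whole and after each was reduced to the length of the shortest (the equal-length lists). Overlapping peaks of all libraries were merged into regions. A region is called EC-K4KO-only if at least 2 EC-K4KO equal-length lists and no WT Cre equal-length list had a peak in it, and WT-only if both WT Cre lists and no EC-K4KO list did. These terms describe places in ranked lists, and a WT-only region may still have a weaker-ranked peak in EC-K4KO. The sequences that follow (RefSeq, GRCm38) are 150 bases each and show the kinds of DNA behind the 2 sets: the Klf4 promoter itself, best-ranked EC-K4KO-only regions, best-ranked WT-only regions and a Ctcf exon that stood apart. Promoter sequences end at the base before the RefSeq start and follow the strand of the gene, and the others are centred on the strongest peak or, for Ctcf, on the middle of the exon, on the plus strand. Capitals mark matches, on either strand, to any of 8 short motifs that were searched: GGGNGTGG (KLF), GGGGCGGGG (the GC box of SP and KLF factors), CCGGAAG (ETS), TGANTCA (AP-1), AGGNGGC (CTCF core), GTAAACA (FOX), CCATTGT (SOX) and CCAATCA (NF-Y).
Klf4 promoter, chr4:55532476-55532625, minus strand: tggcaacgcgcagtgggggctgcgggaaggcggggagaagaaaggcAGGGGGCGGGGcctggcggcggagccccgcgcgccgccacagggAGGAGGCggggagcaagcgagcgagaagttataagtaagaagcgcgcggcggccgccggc
Dlgap4 promoter, EC-K4KO-only, chr2:156720815-156720964: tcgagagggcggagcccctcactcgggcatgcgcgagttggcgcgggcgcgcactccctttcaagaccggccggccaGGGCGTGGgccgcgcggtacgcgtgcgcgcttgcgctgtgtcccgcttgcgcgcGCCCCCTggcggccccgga
Nomo1 promoter, EC-K4KO-only, chr7:46033546-46033695: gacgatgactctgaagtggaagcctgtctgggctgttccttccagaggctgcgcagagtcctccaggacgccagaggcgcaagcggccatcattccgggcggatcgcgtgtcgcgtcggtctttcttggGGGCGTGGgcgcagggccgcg
Zswim6 intron 2, EC-K4KO-only, chr13:107831312-107831461: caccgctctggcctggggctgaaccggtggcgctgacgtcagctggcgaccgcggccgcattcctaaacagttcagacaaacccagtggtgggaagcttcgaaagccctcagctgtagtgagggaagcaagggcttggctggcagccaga
Intergenic near Uvrag, EC-K4KO-only, chr7:99151440-99151589: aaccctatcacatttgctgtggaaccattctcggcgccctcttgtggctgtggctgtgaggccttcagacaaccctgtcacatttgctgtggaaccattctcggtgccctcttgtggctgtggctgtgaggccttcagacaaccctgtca
Git1 intron 1, WT-only, chr11:77497533-77497682: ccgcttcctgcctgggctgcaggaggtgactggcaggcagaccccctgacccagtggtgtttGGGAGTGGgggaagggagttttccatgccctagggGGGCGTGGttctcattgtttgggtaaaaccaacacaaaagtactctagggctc
Mmrn2 intron 1, WT-only, chr14:34378805-34378954: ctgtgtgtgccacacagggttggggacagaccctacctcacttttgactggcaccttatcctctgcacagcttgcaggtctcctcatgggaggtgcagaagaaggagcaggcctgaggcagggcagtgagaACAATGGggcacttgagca
Intergenic near Man1c1, WT-only, chr4:134734543-134734692: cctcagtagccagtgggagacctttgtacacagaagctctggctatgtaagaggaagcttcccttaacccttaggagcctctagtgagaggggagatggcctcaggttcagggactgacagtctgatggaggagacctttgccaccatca
Ctcf coding exon, WT-only, chr8:105664079-105664228: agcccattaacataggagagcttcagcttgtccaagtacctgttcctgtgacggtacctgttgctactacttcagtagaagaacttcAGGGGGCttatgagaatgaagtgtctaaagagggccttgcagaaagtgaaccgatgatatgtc
The Klf4 promoter held a GC box that overlapped a CTCF core match, and a second CTCF core match. Both EC-K4KO-only promoters shown held a KLF match, and so did the Git1 intron of the WT-only set, with 2, but these examples do not stand for their sets. Within 300 bp windows over a TSS a KLF match was in 20.7% of EC-K4KO-only, 29.8% of WT-only and 22.7% of all young regions. The Uvrag sequence is a tandem repeat, and 75% of the 12-base words in its strongest peak occurred more than once. The EC-K4KO-only intergenic region near Snhg7 was also repetitive, with 62.9% of its words repeated. These were the only 2 of 192 EC-K4KO-only regions not over a TSS (1.04%) with more than 20% of words repeated. Of all 3601 young regions not over a TSS the share was 1.25%, so such repeats were not typical of the set.

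The lists had the promoters of brain ECs and few of other cell types. Of 25 endothelial genes, 13 had a peak at the promoter or transcription start site (TSS) in each WT Cre list and 19 to 22 in the EC-K4KO lists. No list had a peak at any of 15 pericyte and mural, 15 microglial or 10 neutrophil genes. For each of the astrocyte, oligodendrocyte and neuron lists of 15 genes, at most 4 members had a peak in an EC-K4KO list and at most 1 in a WT Cre list, and all of these peaks lay outside the equal-length lists. Read depth is unknown, since the files give no counts. EC-K4KO replicate 1 stood apart from the other 2 EC-K4KO libraries, with a median fold enrichment of 3.11 against 4.55 and 4.50. Its last peak inside the cutoff had a −log10 p of 8.26, against 14.1 and 15.6 in replicates 2 and 3 and 3.99 and 5.29 in WT Cre replicates 1 and 2.

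EC-K4KO lists held more and wider peaks than WT Cre lists. The 3 EC-K4KO lists had 23848, 25309 and 27992 peaks. Of the 2 WT Cre lists, the shorter, of replicate 1, set the equal length, and that of replicate 2 had 9598. No EC-K4KO list came near a WT Cre list, and the mean was 25716 ± 2102 (SD, n = 3) against 7878 ± 2433 (SD, n = 2), a ratio of 3.26. The DNA covered was 11.9 ± 1.13 Mb in EC-K4KO and 3.21 ± 1.07 Mb in WT Cre. In whole lists promoter-TSS peaks made up 27.0% ± 1.68 of EC-K4KO peaks and 51.2% ± 6.004 of WT Cre peaks. At equal length the order turned, with 61.9%, 64.6% and 63.5% in EC-K4KO and 55.4% and 61.2% in WT Cre, a difference of 4.97 percentage points. Without WT Cre replicate 1 that difference was 2.07 points, and without WT Cre replicate 2 it was 7.87. Intergenic peaks were 12.5% ± 0.609 in EC-K4KO and 17.0% ± 3.08 in WT Cre, and intron peaks 12.8% ± 0.433 and 16.2% ± 1.89. The median peak was 592 ± 45.0 bp wide in EC-K4KO and 374 ± 39.6 bp in WT Cre. In none of these measures did the 2 genotypes overlap. The two-sided exact permutation test of 3 against 2 libraries has 10 arrangements and cannot give a p below 0.1, so no list measure could pass 0.05, and 18 of the 25 measures tested had that smallest p (adjusted p = 0.139).

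**Figure D1:**
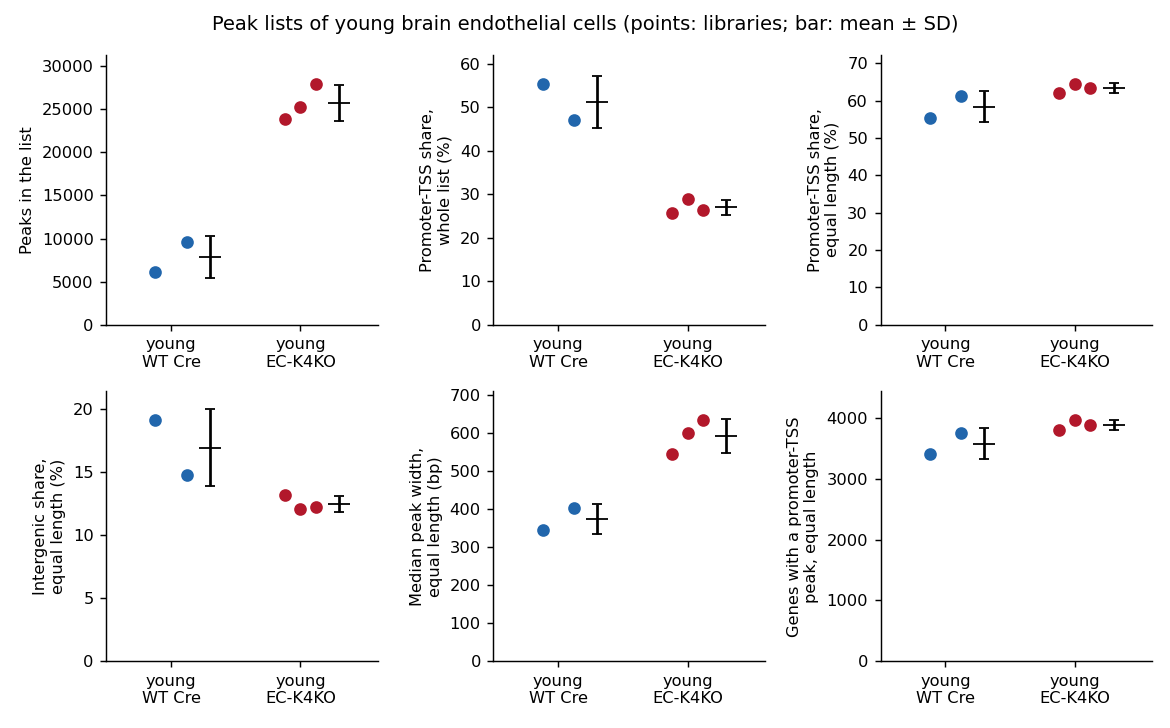
Each panel plots 1 measure of the peak lists of young WT Cre (blue, 2 libraries) and young EC-K4KO (red, 3 libraries); the black bar is the mean ± SD and every axis starts at 0. The EC-K4KO lists hold 23848 to 27992 peaks against at most 9598, and the promoter-TSS share is lower in EC-K4KO in whole lists and higher at equal length.

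The Klf4 locus was open in both genotypes. Klf4 lies on chr4:55527137-55532475 on the minus strand. The promoter peak had rank 911, 1155 and 1414 in EC-K4KO and 3588 and 2467 in WT Cre. Its fold enrichment was 6.15, 7.84 and 7.49 in EC-K4KO and 4.05 and 4.62 in WT Cre. All 3 EC-K4KO promoter peaks thus ranked above both WT Cre peaks. The same held at 18.8% of the 3712 regions at a TSS with a peak in all 5 whole lists. In the test of such regions given below, the Klf4 promoter did not pass (limma adjusted p = 0.178). The strongest peak near Klf4 lay 119 kb upstream, in intergenic DNA, at rank 62, 75 and 78 in EC-K4KO and 101 and 50 in WT Cre, where the groups overlapped. A peak 17.5 kb downstream ranked 2210, 1912 and 1287 in EC-K4KO and 2654 and 2052 in WT Cre, again overlapping. Another, 72.6 kb upstream, ranked 2397, 3410 and 3527 in EC-K4KO and 2761 and 1862 in WT Cre, and overlapped too. These 4 regions were the ones of 11 within 150 kb that had a peak in all 5 lists. No list had a peak in the Klf4 body beyond the promoter peaks, so the deletion of Klf4 could not be checked from the peak lists.

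**Figure D2:**
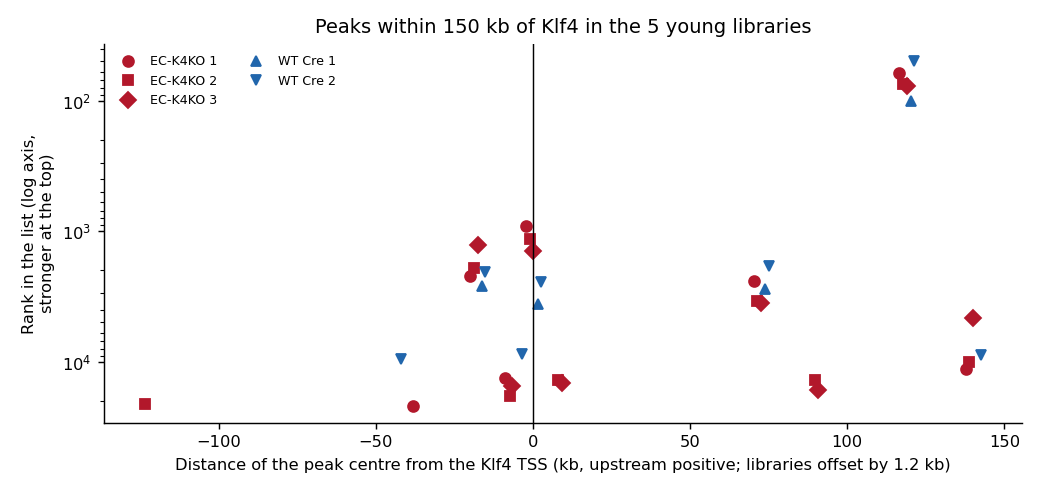
The rank of every peak within 150 kb of the Klf4 TSS (log axis, strongest at the top) is plotted against its distance from the TSS in kb, for 3 EC-K4KO (red) and 2 WT Cre (blue) libraries. At the TSS the 3 EC-K4KO peaks, ranks 911 to 1414, lie above both WT Cre peaks, and at 119 kb upstream the groups are mixed.

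Of 9280 regions with a young equal-length peak, 705 (7.6%) were EC-K4KO-only and 179 (1.93%) were WT-only, while 3759 were in all 5 lists. Since 3 libraries stood against 2 and at least 2 were needed on either side, the 2 counts are not on one footing. EC-K4KO-only regions were mostly promoters, 432 of 705 (61.3%), with 102 in introns, 95 intergenic, 68 in exons and 8 at transcript ends. WT-only regions were mostly outside promoters, with 58 in introns, 52 intergenic, 52 promoters, 15 in exons and 2 at transcript ends. Put by class, 8.59% of promoter-TSS regions were EC-K4KO-only and 1.03% WT-only. The corresponding shares were 6.22% and 3.54% for introns and 5.51% and 3.02% for intergenic regions. The deposited class follows the centre of a peak, so a wider peak can move from promoter to exon or intron, and 76 of the 170 EC-K4KO-only exon and intron regions lay within 300 bp of a TSS. By direct overlap, 513 of 705 EC-K4KO-only regions (72.8%) and 57 of 179 WT-only regions (31.8%) covered a TSS, against 61.2% of all 9280. WT-only regions lay over 10 kb from a TSS in 44.7% of cases, EC-K4KO-only regions in 19.6% and all regions in 26.1%.

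**Figure D3:**
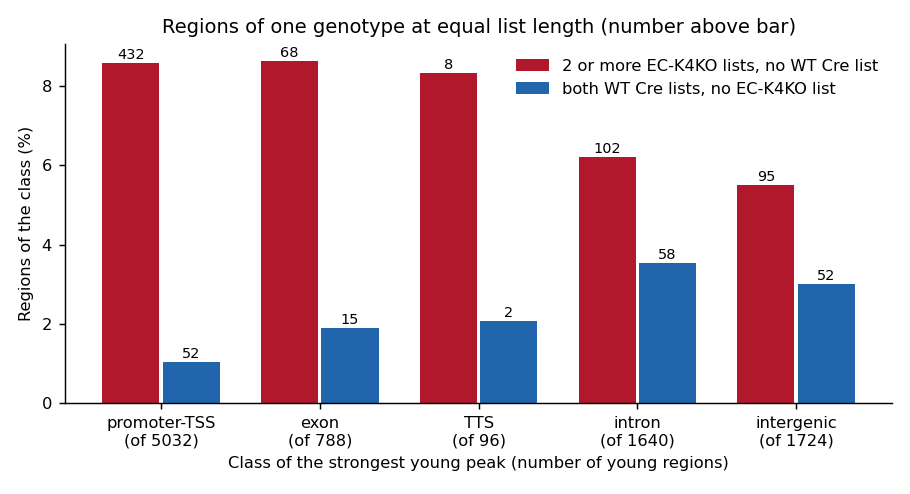
Bars give the share of the young regions of each class that were EC-K4KO-only (red) or WT-only (blue) at equal list length, with the number of regions above each bar. The red share runs from 5.51% to 8.63% and the blue share from 1.03% at promoters to 3.54% in introns.

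The sizes of both sets moved with single libraries. Without EC-K4KO replicate 1, the library with the lower fold enrichment, there were 496 EC-K4KO-only and 279 WT-only regions. Without EC-K4KO replicates 2 and 3 in turn there were 389 and 436 EC-K4KO-only regions and 224 and 237 WT-only regions. With a single WT Cre list the counts grew, to 1145 and 759 without WT Cre replicate 1 and to 1570 and 1277 without WT Cre replicate 2. Across these settings the promoter share was 58.8% to 66.1% in the EC-K4KO-only set and 15.6% to 32.9% in the WT-only set. In whole lists 9428 of 48948 regions (19.3%) were EC-K4KO-only and 1 (0.00204%) was WT-only. That region, chr8:71214726-71215170, was intergenic, near Gm38415, and had rank 4649 and 6761 in the 2 WT Cre lists.

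Read by the fold enrichment of the peaks present, WT-only regions were seldom weaker in EC-K4KO. All but 1 of the 179 had a peak in at least 2 EC-K4KO whole lists, and 158 had one in all 3. Their median fold enrichment was 3.39, 5.55 and 5.94 in EC-K4KO replicates 1 to 3 and 4.06 and 4.41 in WT Cre replicates 1 and 2. The EC-K4KO mean was above the WT Cre mean in 154 of the 179 (86.0%). That mean left out any list without a peak, and EC-K4KO replicate 1 had a peak in 159 of them. Of the 158 with a peak in all 3 lists, only 1 had every EC-K4KO value below both WT Cre values. Over all 4874 regions with a peak in all 5 young whole lists, the EC-K4KO mean was above in 97.7%. A higher fold enrichment in EC-K4KO was thus general to the libraries and less frequent among WT-only regions. The WT-only regions were regions that ranked lower within EC-K4KO lists, where the cutoff was higher. EC-K4KO-only regions had no WT Cre peak in the whole lists in 486 of 705 cases (68.9%), and in the other 219 WT Cre replicate 2 had a peak past the cutoff. The 2 sets cannot be compared in this, since the list of WT Cre replicate 1 ends at the cutoff and that of replicate 2 soon after, while the EC-K4KO lists hold most of their peaks past it. Their median fold enrichment was 4.22, 7.72 and 7.92 in the EC-K4KO libraries. Few were among the strongest peaks, and 28 of 705 had a mean EC-K4KO rank within 3000.

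The best-ranked EC-K4KO-only promoter lay between Dlgap4, which encodes a synaptic scaffold protein, and 4930405A21Rik, with fold enrichments of 5.42, 9.58 and 8.86. The Pmepa1 promoter (chr2:173276424-173276727) had 5.05, 9.52 and 11.1 and no WT Cre peak. PMEPA1 is a TGF-beta-induced inhibitor of SMAD signalling. The Nomo1 promoter, of a protein of the endoplasmic reticulum, had 5.04, 12.4 and 8.49. The Psmd12 promoter, of a subunit of the regulatory particle of the proteasome, had 6.04, 10.95 and 11.5 in EC-K4KO and 3.93 in WT Cre replicate 2, at rank 7074. Replicate 1 was the lowest of the 3 EC-K4KO libraries at all of these promoters. Among introns, Zswim6 intron 2 led with 6.92, 11.03 and 13.2 and ranks of 1914, 2259 and 1280. An intron of Nr2f2, which encodes the venous identity factor COUP-TFII, ranked 4190 and 2554 in EC-K4KO replicates 1 and 2 and 6430 in replicate 3, just past the cutoff. Regions near the immediate early genes Ier2 and Egr1 were in this set. The last exon of Cacna1a, 23.4 kb from the Ier2 TSS, ranked 258, 2090 and 1815, the best single rank of any EC-K4KO-only region. An intergenic region 26.4 kb from the Egr1 TSS ranked 3071, 2879 and 3330. Neither had a WT Cre peak, and both had a peak in all 4 old libraries.

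The best-ranked WT-only promoter was that of Rin3, a guanine nucleotide exchange factor for RAB5, with ranks of 3566 and 2699 in WT Cre and 6284, 8985 and 9715 in EC-K4KO. Its fold enrichment was 4.29 and 5.08 in WT Cre and 3.43, 4.97 and 5.12 in EC-K4KO, so the groups overlapped in fold and not in rank. The Plxna2 promoter, of a semaphorin receptor, ranked 3219 and 4056 in WT Cre and 7798, 7843 and 6643 in EC-K4KO. The Brd9 promoter, of a bromodomain subunit of a BAF chromatin remodelling complex, ranked 1686 and 5129 in WT Cre and 18872, 6703 and 8622 in EC-K4KO. At these promoters every EC-K4KO library still had a peak, past the cutoff. Intron 1 of Mmrn2, which encodes an endothelial matrix protein, ranked 3149 and 3324 in WT Cre and 7536, 6570 and 6422 in EC-K4KO, all near the cutoff. Intron 1 of Git1 ranked 2941 and 2374 against 7566, 6678 and 6804. The intergenic region near Man1c1 ranked 2936 and 1851 in WT Cre and 8858, 13588 and 10664 in EC-K4KO. Its fold enrichment was 4.66 and 5.61 in WT Cre and 2.95, 4.27 and 5.09 in EC-K4KO. The region near Bach2, a transcriptional repressor, ranked 1430 and 4422 against 6591, 9878 and 6666.

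**Figure D4:**
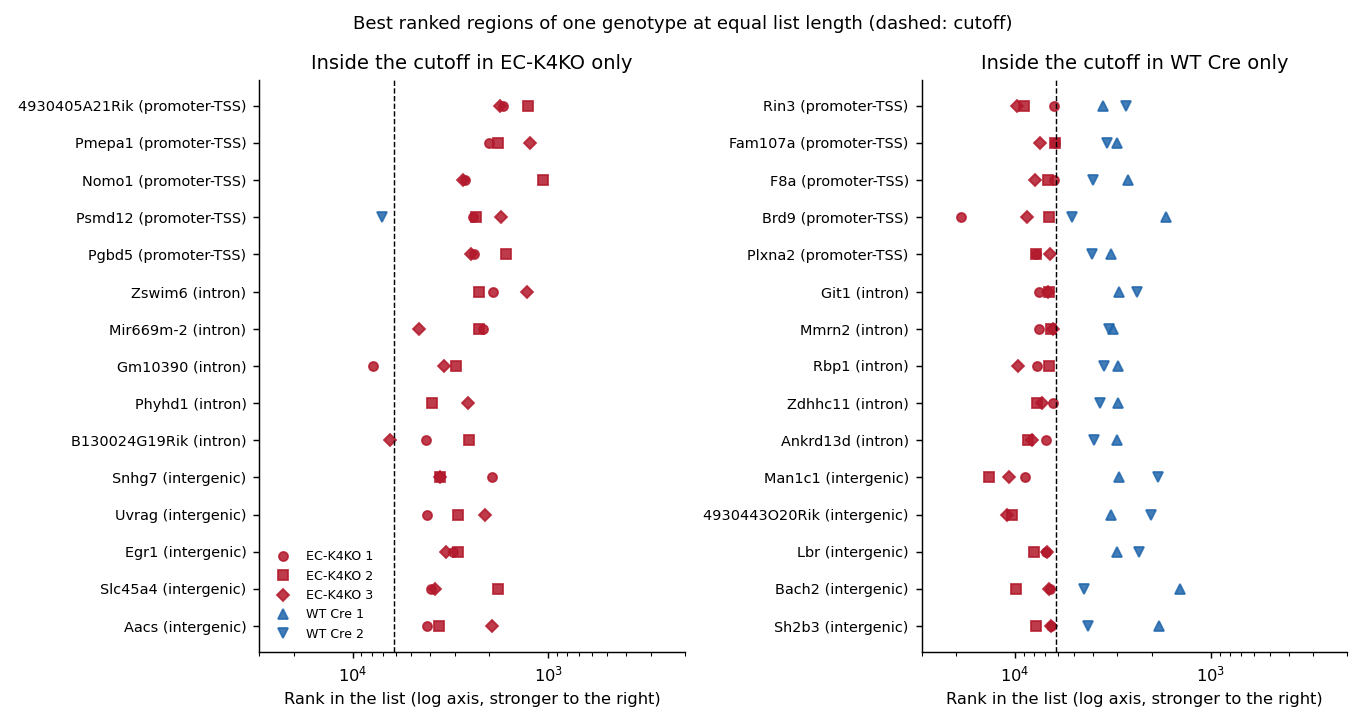
The rank of the peak in each library (log axis, stronger to the right) is shown for the 5 best-ranked EC-K4KO-only (left) and WT-only (right) regions of 3 classes, labelled by the gene of the nearest TSS (4930405A21Rik for the Dlgap4 promoter, B130024G19Rik for the Nr2f2 intron); the dashed line is the equal-length cutoff. On the left a single region has a WT Cre point, Psmd12 at rank 7074, while on the right every red EC-K4KO point lies past the cutoff, the nearest at rank 6241.

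A separate case was a WT-only region over exons of Ctcf, the gene of the insulator protein CTCF (chr8:105663787-105665018). It was the strongest peak of WT Cre replicate 2 by −log10 p, at 350, yet its fold enrichment there was 5.66. Whether this signal came from the chromatin of the locus was not tested, and the peak lists cannot show it, so the WT-only call of this region is a place in the lists and no more. It had rank 3132 in WT Cre replicate 1 and 8126, 9578 and 13557 in EC-K4KO, with fold enrichments of 4.41 and of 3.45, 4.54 and 3.97. Together its peaks covered most of 2 coding exons and the intron between them, and the peak of WT Cre replicate 1 lay within the first of these exons. It was the single region, of 4874 with a peak in all 5 young whole lists, that had no peak in any of the 4 old lists. The region at the Ctcf TSS, for comparison, had a peak in all 3 EC-K4KO lists and WT Cre replicate 2 and in all 4 old lists.

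EC-K4KO-only and WT-only regions differed in base composition, by less once regions over a TSS were set aside. The median GC content was 65.6% in EC-K4KO-only regions, 57.1% in WT-only regions and 62.8% in all young regions. Away from TSSs it was 55.1% and 54.5%, against 53.6% in all such regions. Motifs were counted in the 300 bp around the centre of the strongest peak. Among regions not over a TSS, a KLF match was in 23 of 192 EC-K4KO-only regions (11.98%) and in 28 of 122 WT-only regions (23.0%), against 16.5% of all 3601. An AP-1 match was in 52 of the same 192 (27.1%) and in 19 of the 122 (15.6%), against 17.4% of all. Both orders held without each library in turn, but for KLF the gap nearly closed without WT Cre replicate 2, with 13.3% of WT-only and 12.8% of EC-K4KO-only regions. ETS matches at TSSs were in 27.9% of EC-K4KO-only regions, 29.8% of WT-only regions and 20.7% of all. NF-Y matches were in 10.1% of EC-K4KO-only and 3.51% of WT-only regions at TSSs, against 11.7%. These are counts of short words and not of bound sites, and they carry no test, since the sets were chosen from the same lists.

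Across the whole equal-length lists the KLF motif was in 21.1% ± 0.23 of EC-K4KO peaks and 21.7% ± 0.31 of WT Cre peaks. The 3 EC-K4KO values lay below both WT Cre values, by 0.66 percentage points in the mean. FOX matches were likewise lower in EC-K4KO, in 3.12% ± 0.216 against 3.87% ± 0.0804. The GC box was in 20.8% ± 0.52 of EC-K4KO peaks and 18.7% ± 1.81 of WT Cre peaks. ETS matches were in 16.9% ± 0.465 and 15.0% ± 1.11, and CTCF core matches in 42.9% ± 0.246 and 40.3% ± 1.84. In 11 of the 16 motif measures the genotypes did not overlap, 7 with EC-K4KO higher and 4 with EC-K4KO lower. Each of these has p = 0.1 or 0.2 by the exact permutation test. Among the 2000 strongest peaks ETS matches were lower in EC-K4KO, by 0.967 points.

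The next comparison asked which of the 4874 regions with a peak in all 5 whole lists ranked differently. Their ranks among shared regions were turned into normal scores and tested with limma. No region passed an adjusted p of 0.05 (0%), and 801 (16.4%) had an unadjusted p below 0.05, with the smallest adjusted p at 0.0704. With fold enrichment in place of −log10 p there were also 0 calls and 748 at an unadjusted p below 0.05. Trend and robust variance gave 7 calls. Leaving out a WT Cre library, so that the remaining one was assumed to vary like EC-K4KO, gave 111 calls without replicate 1 and 195 without replicate 2. All 3 EC-K4KO ranks were above both WT Cre ranks in 809 regions (16.6%) and below both in 833 (17.1%). These regions were split by class. In introns 11.8% ranked above and 24.3% below, in intergenic DNA 11.8% and 24.4%, at promoters 17.7% and 14.9%, and in exons 23.8% and 9.80%. Over a TSS the shares were 19.5% and 13.4%, and away from TSSs 9.70% and 25.9%. A higher rank is relative, since the mean fold enrichment was higher in EC-K4KO than in WT Cre at 4760 of the 4874 regions (97.7%).

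**Figure D5:**
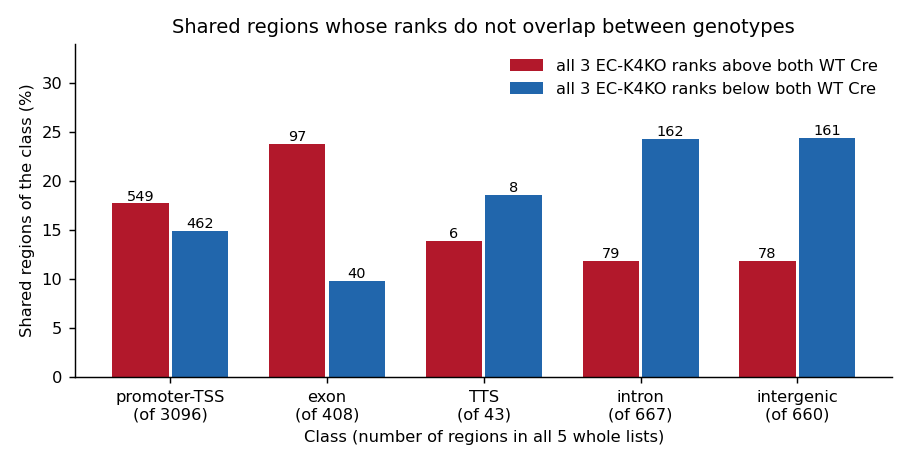
Bars give the share of shared regions of each class in which all 3 EC-K4KO ranks were above (red) or below (blue) both WT Cre ranks, with the number of regions above each bar. At promoters and exons red exceeds blue, and in introns and intergenic DNA blue is 24.3% and 24.4% against 11.8% for red.

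The shared regions with the smallest p are given with their rank among the 4874 and their shift in normal score units, EC-K4KO minus WT Cre. The Adnp promoter, of a homeodomain chromatin protein, ranked 979, 1217 and 1323 in EC-K4KO and 4728 and 4224 in WT Cre, a shift of 2.20 ± 0.298 (SE, limma adjusted p = 0.0704). The Pacs2 promoter ranked 1652, 909 and 1357 against 4411 and 4400, a shift of 1.93. Both lay in the weakest part of the WT Cre order and in the stronger part of the EC-K4KO order, without passing the threshold. Intron 1 of Cdh13, which encodes T-cadherin, ranked 3400, 3569 and 3120 against 4794 and 4855. In the other direction, the region near Man1c1 again led, with a shift of -2.31 ± 0.328 (limma adjusted p = 0.0704). Intron 1 of Tek, the gene of the angiopoietin receptor TIE2, ranked 2461, 2796 and 2535 in EC-K4KO and 458 and 481 in WT Cre, a shift of -1.39 ± 0.246 (limma adjusted p = 0.136). Its fold enrichment was 5.603, 8.44 and 8.33 in EC-K4KO and 7.60 and 8.12 in WT Cre, so the groups overlapped in fold. An intron of Foxp1 had a shift of -1.71, the promoter of Selenop, of a selenium transport protein, -1.54, and the promoter of Usp9x, of a deubiquitinase, -1.70. All 20 regions named by this rule had non-overlapping ranks, which is no separate result, since they were picked by p from these same ranks.

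Of the endothelial TSS regions with a peak in all 5 whole lists, several ranked lower in EC-K4KO and the others overlapped between genotypes. Other endothelial genes went the other way. By any peak over a TSS in whole lists, 5 of 21 (23.8%) were EC-K4KO-only (Fli1, Pecam1, Robo4, Sox18 and Tek), against 34.6% of all genes. No gene of any kind was WT-only by that rule. Of 25 endothelial genes, 15 had a young equal-length region at the TSS, and none of these was EC-K4KO-only or WT-only, against 8.19% and 1.04% of all 7787 genes with such a region. Among 12 shared regions at their TSSs, 4 (33.3%) ranked below both WT Cre libraries in every EC-K4KO library and none ranked above, against 14.2% below and 18.8% above of all 3712 shared regions at a TSS. The median shift was -0.414, against 0.0629 over all genes. Cldn5, which encodes the main tight junction claudin of brain ECs, ranked 2095, 3331 and 2928 in whole EC-K4KO lists and 549 and 1407 in WT Cre lists, a shift of -0.95 ± 0.299 (limma adjusted p = 0.193). Its fold enrichment was 4.34, 6.21 and 6.06 in EC-K4KO and 6.27 and 5.55 in WT Cre. Erg, an endothelial ETS factor, ranked 5974, 4383 and 5273 against 3661 and 3402. Egfl7 and Itm2a were the other 2. Flt1 ranked 1181, 1727 and 1477 against 1191 and 1249, and Cdh5 4493, 2776 and 4431 against 3395 and 1739, both with overlap.

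Of the 26 KLF and SP factors, 16 had a region at the TSS and none was EC-K4KO-only or WT-only, which at 8.19% and 1.04% of all genes is little to read from. Klf2, the flow-induced partner of Klf4, ranked 63, 61 and 69 in EC-K4KO and 83 and 129 in WT Cre, above both in every EC-K4KO list by a shift of 0.19 ± 0.246. Klf7 ranked above both as well, at 111, 156 and 40 against 193 and 297. Klf6 ranked below both, at 574, 972 and 968 against 456 and 254. Sp3 ranked 4756, 5460 and 4442 against 1253 and 4165. Of the 15 shared regions of the KLF and SP list, 4 (26.7%) ranked above, Klf4 among them, and 2 (13.3%) below. The shares of all shared regions at a TSS were 18.8% and 14.2%. None passed the limma threshold (limma adjusted p of 0.723 for Klf2, 0.472 for Klf7, 0.374 for Klf6 and 0.306 for Sp3). In the kinase pathway that induces KLF2 and KLF4, Map3k3 (MEKK3) ranked 150, 133 and 158 in EC-K4KO and 42 and 21 in WT Cre, a shift of -0.63 ± 0.249 (limma adjusted p = 0.256). Mapk7 (ERK5) ranked 553, 563 and 412 against 315 and 274. The mechanosensitive channel gene Piezo1 shifted the other way, by 0.77 ± 0.264 (limma adjusted p = 0.212). Heg1, which encodes a receptor that binds the CCM complex, was EC-K4KO-only, with ranks of 6800, 3176 and 4237. Of the 9 shared regions of this pathway's list 3 ranked above and 3 below (33.3% each, against 18.8% and 14.2% of all such regions), and none passed the limma threshold.

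DNA repair genes had more EC-K4KO-only members than the background at equal length, which was not tested. They were 1 of 28 lists chosen with earlier results of these data known, and the count by region was added after seeing the data. By region at the TSS, of 26 with a region at the TSS, 6 were EC-K4KO-only (23.1%) against 8.19% of all genes, and none was WT-only. They included Atr, the replication stress kinase, Ercc2, Lig1, Lig3 and Mre11a. Atr had a fold enrichment of 4.68, 9.83 and 7.75 in EC-K4KO, Mre11a 4.24, 9.91 and 11.6, and neither had a WT Cre peak. Lig1 and Lig3, both DNA ligases, had 3.75 and 4.01 in WT Cre replicate 2, past the cutoff. Of the 13 shared repair regions, 5 (38.5%) ranked below both WT Cre libraries (Atm, Ercc4 and Ogg1 among them) and 1 (7.69%) above (Nbn), against 14.2% and 18.8% of all such regions. By the deposited promoter-TSS class the list had 7 EC-K4KO-only genes of 21, against 9.36% of all genes, and by any peak over a TSS 8 of 26 (30.8%), against 14.5%. By any peak over a TSS in whole lists the share was 28.1%, below the 34.6% of all genes. For WT-only genes the equal-length backgrounds of these rules were 2.27% and 0.776%.

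By region at the TSS, with 8.19% of all genes EC-K4KO-only, 3 of 21 cell cycle and replication genes were (14.3%, Cdk2, E2f1 and Mcm2), as were 5 of 37 cytosolic ribosomal protein genes (13.5%) and 3 of 18 Wnt genes (16.7%, Dvl1, Reck and Tcf7l1). By any peak over a TSS, with a background of 14.5%, the counts were 7 of 20 cell cycle genes (35%), 7 of 37 ribosomal protein genes (18.9%) and 4 of 16 Wnt genes (25%). E2f1, an S-phase transcription factor, ranked 6229, 5051 and 2517 with no WT Cre peak. No member was EC-K4KO-only or WT-only among 11 leukocyte adhesion and NF-kB genes, 21 AP-1 and immediate early genes or 6 vasomotor and coagulation genes with a region at the TSS. Against backgrounds of 8.19% and 1.04%, lists of this size could hold few such members, and nothing is read from these counts of 0. Within those lists Jun ranked lower in EC-K4KO, at 841, 1371 and 1207 against 189 and 523. The regions at the TSSs of Egr1, Ier5 and Nr4a2 ranked above both WT Cre libraries, as did 1 of 2 regions of Nr4a1, whose promoter-TSS region overlapped. In the AP-1 list 4 of 20 shared regions (20%) ranked above and 1 (5%) below. The shares of all shared regions at a TSS were 18.8% and 14.2%, so the share above was near the background. In the interferon and MHC list 2 of 9 (22.2%), B2m and H2-D1, ranked below and none above. By any peak over a TSS at equal length H2-D1 was instead EC-K4KO-only. The 2 list members that were WT-only were Notch4 and Rpl7. Notch4, an endothelial Notch receptor, ranked 4599 and 4556 in WT Cre and 8519, 8785 and 8203 in EC-K4KO. Its fold enrichment was 3.87 and 4.38 in WT Cre and 2.99, 5.01 and 5.37 in EC-K4KO, which overlapped.

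Ppp1r15a, Adamts1 and Slc16a1 were also read by name. Ppp1r15a, which encodes the GADD34 subunit that reverses eIF2alpha phosphorylation, ranked 2803, 3681 and 2804 in EC-K4KO and 1892 and 2799 in WT Cre. Adamts1, a secreted metalloprotease, ranked 1467, 3202 and 3438 against 2314 and 2570. Slc16a1, the lactate transporter MCT1, ranked 3892, 4291 and 6241 against 3542 and 2377. In whole lists all EC-K4KO ranks of Ppp1r15a and Slc16a1 were below both WT Cre ranks, for Ppp1r15a by a few places only, while among the shared regions the genotypes overlapped at all 3 genes (limma adjusted p of 0.627 for Ppp1r15a, 0.958 for Adamts1 and 0.432 for Slc16a1). The Slc16a1 peak was annotated promoter-TSS in both WT Cre lists and exon or intron in the EC-K4KO lists, so a count by class alone would have made it WT-only.

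The old libraries, which had no part in choosing the regions, were read at the same places. Every one of the 705 EC-K4KO-only regions had a peak in all 4 old whole lists, as did 177 of the 179 WT-only regions and 8629 of the 9280 young regions. At equal length, 134 of the 9280 young regions (1.44%) were in both old EC-K4KO lists and no old WT Cre list, the old EC-K4KO side, and 182 (1.96%) were on the old WT Cre side. Of the 7372 regions with an old equal-length peak these shares were 2.93% and 3.2%. Of the 705 EC-K4KO-only regions, 169 of which had no old equal-length peak, 21 (2.98%) were on the old EC-K4KO side and 11 (1.56%) on the old WT Cre side. Of the 179 WT-only regions, 3 (1.68%) were on the old EC-K4KO side and 16 (8.94%) on the old WT Cre side. Each set thus had a higher share on its own side than all young regions did. For the EC-K4KO-only set, though, 2.98% was near the 2.93% of all regions with an old equal-length peak, a base that leaves out regions without one. Of the 179 WT-only regions, 109 were in no old equal-length list. Among the named WT-only regions, those near 4930443O20Rik and in introns of Git1 and Mmrn2 were in both old WT Cre equal-length lists and in neither old EC-K4KO list. The named EC-K4KO-only regions showed no such split on the old EC-K4KO side. In whole lists only 1 of the 179 regions and none of the 705 kept such a split.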

How the data were processed

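ATAC-seq libraries of brain ECs were compared between young EC-K4KO (3) and young WT Cre (2). Per the labels and the study's methods, the authors aligned reads with Bowtie2 to mm10 (GRCm38), called broad peaks with MACS2 in each library separately and annotated them with HOMER. The deposited lists give a score, a fold enrichment (ratio), a −log10 p and a −log10 q for each peak. No counts were used here, so depth is unknown. All 253457 peaks lay within GRCm38 chromosome ends.

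Peaks were ranked by −log10 p within a library and reduced to the length of the shortest list. Overlaps of 1 bp or more joined the peaks of the 9 libraries into 92495 regions. TSSs came from GENCODE M21, sequences from RefSeq GRCm38.p6. Of 20035 gene names 51 matched no current name and were kept. List measures were tested by exact permutation with Benjamini-Hochberg adjustment over 25 tests, and shared regions with limma 3.58.1 (R 4.3.3) on normal scores of ranks, trend and robust off, adjusted p under 0.05. Scripts were tested on simulated data. The score column was not used.

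The named regions were the 5 best by mean rank of each side at promoters, introns and intergenic DNA and the 3 best in exons and at transcript ends, the region lost in whole lists, the 10 shared regions with the smallest p in each direction, the Klf4 locus, Ppp1r15a, Adamts1, Slc16a1 and members of 28 gene lists. Members, lists and rules were chosen with earlier results of these data known. Alternatives were q under 0.05 and 0.01, ranking by fold, 2000 or 4000 peaks, 50% overlap, all 3 EC-K4KO lists, regions merged from young libraries, other limma settings, other promoter rules and leaving out each library. The count of list genes by region at the TSS was added after seeing the data. The values of a few genes are not reported here.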

Additional observations from a re-analysis of the deposited data

Results flagged for a closer look

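The genotype difference differed between young and old libraries for 3 list measures, by an exact permutation test over the 60 arrangements of genotype within each age (two-sided, smallest possible p 0.0167, 9 measures tested). The promoter-TSS share at equal length was 4.97 percentage points higher in young EC-K4KO than in young WT Cre and 0.861 points lower in old EC-K4KO than in old WT Cre (a change of -0.861), a difference of 5.83 between ages (exact p = 0.0333, adjusted 0.1). The intron share was -3.31 points in young and 0.463 in old, a difference of -3.77 (exact p = 0.0333, adjusted 0.1). Genes with a peak of that class differed in number by 305 in young and by -54 in old, a difference of 359 (exact p = 0.0333, adjusted 0.1). None of the 3 passed after adjustment. The shortest list was WT Cre replicate 1 of the young group, and the equal-length lists held 22.0% to 25.8% of each young EC-K4KO list, 100% and 64.1% of the young WT Cre lists and 13.7% to 18.9% of the old lists. The part of these depths in the differences was not tested.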

How the results depend on the processing

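With 2 and 3 libraries, no list measure could pass its test under any setting, and the 9 differences in peak number, length, class, width, genes and GC content kept their direction throughout. EC-K4KO-only regions at equal length numbered 258 among the 2000 strongest peaks, 410 among the 4000 strongest, 308 if all 3 EC-K4KO lists were required, and 389 to 1570 when 1 library was left out. WT-only regions numbered 91 among the 2000 strongest and 224 to 1277 with 1 library left out. In whole lists, EC-K4KO-only regions numbered 4143 to 12488 with 1 library left out, and WT-only regions 2 at q under 0.05, 0 at q under 0.01 and 2 to 1404 with 1 library left out. The limma fit called 1 region among those in all 5 equal-length lists, 7 with trend and robust variance and 0 to 195 with 1 library left out. Of the list members, 34 were EC-K4KO-only by promoter-TSS class, 103 in whole lists and 55 by any peak over a TSS, and 6 were WT-only by class, 1 by any peak over a TSS and 2 by region. On the old WT Cre side there were 16 WT-only regions at equal length and 1 in whole lists, and on the old EC-K4KO side 21 EC-K4KO-only regions and 0. The cause of these changes was not tested, apart from the list lengths and library numbers that the settings set. Motif differences (EC-K4KO minus WT Cre, percentage points) that turned among the 2000 strongest peaks were ETS (-0.967), AP-1 outside promoters (-2.70), SOX outside promoters (-1.68) and NF-Y (-0.408). With 1 library left out, KLF outside promoters ran from -2.35 to 0.146, SOX outside promoters from -0.0492 to 0.287, NF-Y from -0.222 to 0.59 and NF-Y outside promoters from -0.0732 to 0.146. Libraries with the same number correlated by 0.057 and 0.0359 in their deviations. With 2 WT Cre libraries the deviations mirror each other, and pairing with the other WT Cre library gave -0.057 and -0.0359. These values cannot show whether libraries of the same number shared a batch, and the labels do not say. The replicate block gave differences of 16701 peaks, 8.03 Mb, -24.0 and 4.90 points of promoter-TSS share in whole and equal-length lists, NF-Y outside promoters turned to -0.0732, and the limma fit with the block made 0 calls. For the list measures and motif shares the block gave the same differences as leaving out EC-K4KO replicate 3, whose number no WT Cre library has. It is therefore no separate check of them. Depth limits all of these comparisons to an unknown degree, since the files hold no counts.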
